A study of Rattus norvegicus with 12 samples.

Results

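The aminoacyl-tRNA synthetases, together with ATF4 and a set of its reported targets, made up 56 of the 14636 genes in the expression table of neonatal rat heart cells. Of these, 35 were taken by the pattern of their symbols, 20 cytosolic and 15 mitochondrial synthetases, and 21 were taken by name: 6 enzymes of serine synthesis and mitochondrial one-carbon metabolism, 3 enzymes of asparagine and proline synthesis, 5 transcription factors of the ATF and C/EBP families including ATF4 itself, and 7 stress effectors. Poly-A RNA was sequenced from heart muscle cells (cardiomyocytes) and cardiac fibroblasts of Sprague Dawley rats aged 2 days, separated on a Percoll gradient. The 4 groups of 3 libraries were cardiomyocytes given a mix of 2 siRNAs against Yap at 25 nM each (CM_yap, knockdown cardiomyocytes), cardiomyocytes given universal negative control siRNA (CM_neg, control cardiomyocytes), fibroblasts given the Yap siRNAs (CF_yap, knockdown fibroblasts) and fibroblasts given the control siRNA (CF_neg, control fibroblasts). All cells were kept in DMEM with 15% serum, were transfected after 16 h and were collected 48 h later. The labels name no genotype. Whether 3 libraries of a group stem from different animals or cultures is not stated, so the p-values speak only to the spread among them, which may be technical.

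Aminoacyl-tRNA synthetases join each amino acid to its tRNA, and separate genes encode most of the cytosolic and the mitochondrial enzymes. When amino acids run short or the endoplasmic reticulum is under stress, kinases phosphorylate the translation initiation factor eIF2, which lowers general protein synthesis and raises translation of the ATF4 mRNA. ATF4, a bZIP transcription factor that pairs with C/EBP proteins, then raises transcription of genes for amino acid synthesis, transport and tRNA charging and of feedback regulators, at a composite DNA element called the C/EBP-ATF response element. ATF4 protein is set largely by translation, so the level of Atf4 mRNA is not a measure of it. YAP is a transcriptional coactivator that the kinases of the Hippo pathway keep out of the nucleus, and that pathway restrains growth of the heart.

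Because the members are defined around ATF4, the promoters of the members were read for the core of that element, TGATGNAA on either strand, in RefSeq windows of the GRCr8 assembly that run from 250 bases before to 50 bases after each annotated start. A window was matched for 51 members. The motif occurred in 11 of the 51 windows (21.6%), against 1332 of 33469 windows of all genes (3.98%). Members were picked partly as reported targets of ATF4, so this contrast describes the set and is not a test. The windows of all genes also include genes that are not in the expression table. It was present in 7 of 17 windows of cytosolic synthetases (Aars, Cars, Iars, Mars, Nars, Tars and Yars), in 0 of 14 windows of mitochondrial synthetases and in 4 of 20 windows of the other members (Chac1, Trib3, Pycr1 and Nupr1). The following stretches, 5′ to 3′ on the gene's own strand with the match in capitals (TTNCATCA where it lies on the other strand), belong to the 6 members that fell most in fibroblasts among the 10 that carry a match and fell with Yap siRNA in both cell types. Apart from the short Yars stretch, each run is the 250 bases before the start.
Chac1, chr3:126795881-126796130, plus strand: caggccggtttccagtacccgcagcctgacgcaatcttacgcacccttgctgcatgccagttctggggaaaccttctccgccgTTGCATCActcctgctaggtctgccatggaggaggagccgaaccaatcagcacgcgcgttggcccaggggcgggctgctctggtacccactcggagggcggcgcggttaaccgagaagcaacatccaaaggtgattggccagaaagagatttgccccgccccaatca
Trib3, chr3:161275534-161275783, minus strand: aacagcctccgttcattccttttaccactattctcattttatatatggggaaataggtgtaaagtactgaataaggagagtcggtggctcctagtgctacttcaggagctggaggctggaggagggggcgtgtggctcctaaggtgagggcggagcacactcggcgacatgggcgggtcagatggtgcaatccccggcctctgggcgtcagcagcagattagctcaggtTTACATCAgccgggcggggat
Pycr1, chr10:106420813-106421062, minus strand: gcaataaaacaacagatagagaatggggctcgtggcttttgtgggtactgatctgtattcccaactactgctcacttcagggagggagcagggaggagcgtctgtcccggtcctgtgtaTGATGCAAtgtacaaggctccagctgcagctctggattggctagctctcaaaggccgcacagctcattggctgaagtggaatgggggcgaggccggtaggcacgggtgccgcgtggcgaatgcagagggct
Iars, chr17:15193653-15193902, minus strand: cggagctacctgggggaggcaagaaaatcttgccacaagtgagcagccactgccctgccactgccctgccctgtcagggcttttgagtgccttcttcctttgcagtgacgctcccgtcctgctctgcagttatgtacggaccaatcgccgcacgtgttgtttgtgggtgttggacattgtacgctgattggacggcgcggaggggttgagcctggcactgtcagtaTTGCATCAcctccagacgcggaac
Nars, chr18:60275783-60276032, minus strand: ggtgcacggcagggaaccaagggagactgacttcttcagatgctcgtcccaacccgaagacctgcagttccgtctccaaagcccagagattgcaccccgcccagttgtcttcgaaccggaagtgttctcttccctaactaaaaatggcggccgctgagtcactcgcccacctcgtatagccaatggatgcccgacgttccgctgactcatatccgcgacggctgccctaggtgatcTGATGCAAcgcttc
Yars, chr5:146820185-146820212, plus strand: gagctacgagctcagcTGATGCAAcctg
The match in the Chac1 promoter began -167 bases from the start, that of Pycr1 -131, and those of Iars, Trib3 and Nars -24, -21 and -14; in Yars it lay after the start, at base 39 of the transcript. A match describes letters in a window and is not a measured binding site, and the annotated start in this assembly may differ from the start used in these cells.

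Expression was given as FPKM, fragments per kilobase of transcript scaled to the mapped total of the library, and was tested as log2(FPKM + 1) with limma over the 11302 genes whose mean over all libraries reached 0.5 FPKM, so a log2 fold change is on that scale and understates changes of genes at low levels. A gene is called here at a Benjamini-Hochberg adjusted p under 0.05, and values after ± are the standard error (SE) of a log2 fold change or the SD over 3 libraries of a mean FPKM. All 56 members passed the filter. FPKM summed to 563193.5 to 620119.3 per library, read depth is unknown, and Spearman correlations across genes between libraries of a group were 0.989 to 0.992. The siRNA target Yap1 had 5.90, 4.43 and 6 FPKM in knockdown cardiomyocytes, against 55.3, 60.8 and 63.1 FPKM in control cardiomyocytes, and 4.45, 3.88 and 4.49 FPKM in knockdown fibroblasts, against 35.4, 37.4 and 33.5 FPKM in control fibroblasts; the groups did not overlap (log2 fold change -3.24 ± 0.10, adjusted p = 1.28e-11 in cardiomyocytes; -2.79, adjusted p = 5.81e-11 in fibroblasts). Summed FPKM of 11 cardiomyocyte markers was 41130 to 44800 in knockdown cardiomyocytes, 32630 to 36640 in control cardiomyocytes, 890 to 1005 in knockdown fibroblasts and 1073 to 1133 in control fibroblasts. Summed FPKM of 9 fibroblast markers was 383.8 to 473.4, 339.8 to 496.6, 17520 to 17720 and 16700 to 17680 in the same order, so each culture carried the markers of its label and a low level of the other's. Endothelial markers were lower in the knockdown cardiomyocytes (403.1 to 474.6 FPKM, sum of 10 genes, 5 called lower and 1 higher) than in control cardiomyocytes (559.1 to 663.4 FPKM) and higher in knockdown fibroblasts (223.5 to 242.4 FPKM, 4 called higher) than in control fibroblasts (176 to 200.2 FPKM). Of 8 smooth muscle and pericyte markers 6 were called higher and 1 lower in knockdown cardiomyocytes (103.3 to 112.2 FPKM, against 87.74 to 94.57 FPKM in controls), and 3 higher and 4 lower in knockdown fibroblasts (277.5 to 290.2 FPKM, against 380.6 to 424.9 FPKM in controls). Of the 11 cardiomyocyte markers 7 were called higher and 3 lower in knockdown cardiomyocytes, and 4 higher and 4 lower in knockdown fibroblasts. Of the 9 fibroblast markers 3 were called higher and 0 lower in knockdown cardiomyocytes, and 4 higher and 0 lower in knockdown fibroblasts. Of 10 leukocyte markers, 3 were called higher and 2 lower in knockdown cardiomyocytes (summing to 223.2 to 307.6 FPKM, against 208.4 to 272.5 FPKM in controls). In knockdown fibroblasts 1 was called higher (334.1 to 398.4 FPKM, against 335.8 to 369.7 FPKM in controls). Of 3 tested epicardial markers, 2 were called lower in knockdown cardiomyocytes (4 genes summing to 8.03 to 11.18 FPKM, against 9.76 to 17.4 FPKM in controls). In knockdown fibroblasts 2 were called higher (47.54 to 52.51 FPKM, against 29.61 to 33.52 FPKM in controls). Of 3 tested erythroid markers, 2 were called lower in knockdown cardiomyocytes (5 genes summing to 123.7 to 205.7 FPKM, against 191.2 to 243.1 FPKM in controls). In knockdown fibroblasts 0 were called (1.12 to 3.97 FPKM, against 0.58 to 1.32 FPKM in controls). Beside these counts, 21.0% of all genes were called higher and 28.7% lower in cardiomyocytes. In fibroblasts the shares of all genes were 20.4% and 10.5%. Several marker counts, such as those of the leukocyte markers in cardiomyocytes, lie near these shares. No marker was at 0 in every library. In bulk RNA, fewer cells of a type and less RNA per cell cannot be told apart, and the part of these markers in the results below was not tested.

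The first comparison asked how the members responded to Yap siRNA in each cell type. The members were chosen with earlier results of these data known. Their shares beside those of all genes therefore describe the set and are not a test of it. In cardiomyocytes 38 of 56 members were called lower (67.9%), 6 higher (10.7%) and 12 were not called. Of all 11302 genes 49.8% were called, 28.7% lower and 21.0% higher. With libraries rescaled by the median of their ratios (median-ratio scaling), the call counts of all genes were 2592 lower and 2927 higher, and those of the members 31 and 6. In fibroblasts 33 members were called lower (58.9%) and 4 higher (7.14%), where 30.9% of all genes were called, 10.5% lower and 20.4% higher; under quantile normalization these counts were 37 and 3 for the members, and 1852 lower against 1600 higher over all genes. The median log2 fold change of the members was -0.35 in cardiomyocytes and -0.32 in fibroblasts, against -0.06 and 0.07 over all genes.

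The 2 comparisons share no library, but they share the Yap siRNAs, the control siRNA and 1 estimate of the spread. Of the 56 members 29 were called lower in both, which held for 736 genes in all (6.51% of those tested). Qars and Ddit4 were called higher in both cell types (6.97% of all genes), and Cebpb and Vldlr were called in opposite directions (4.38%). A further 11 members were called in cardiomyocytes alone, 4 in fibroblasts alone and 8 in neither. The 3 knockdown libraries lay wholly below the 3 controls in 37 members in cardiomyocytes and 37 in fibroblasts (30.5% and 17.7% of all genes), and wholly above in 5 and 6 (22.7% and 31.4%). A call in 1 cell type alone is not a difference between cell types; that difference is tested further on.

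**Figure D1:**
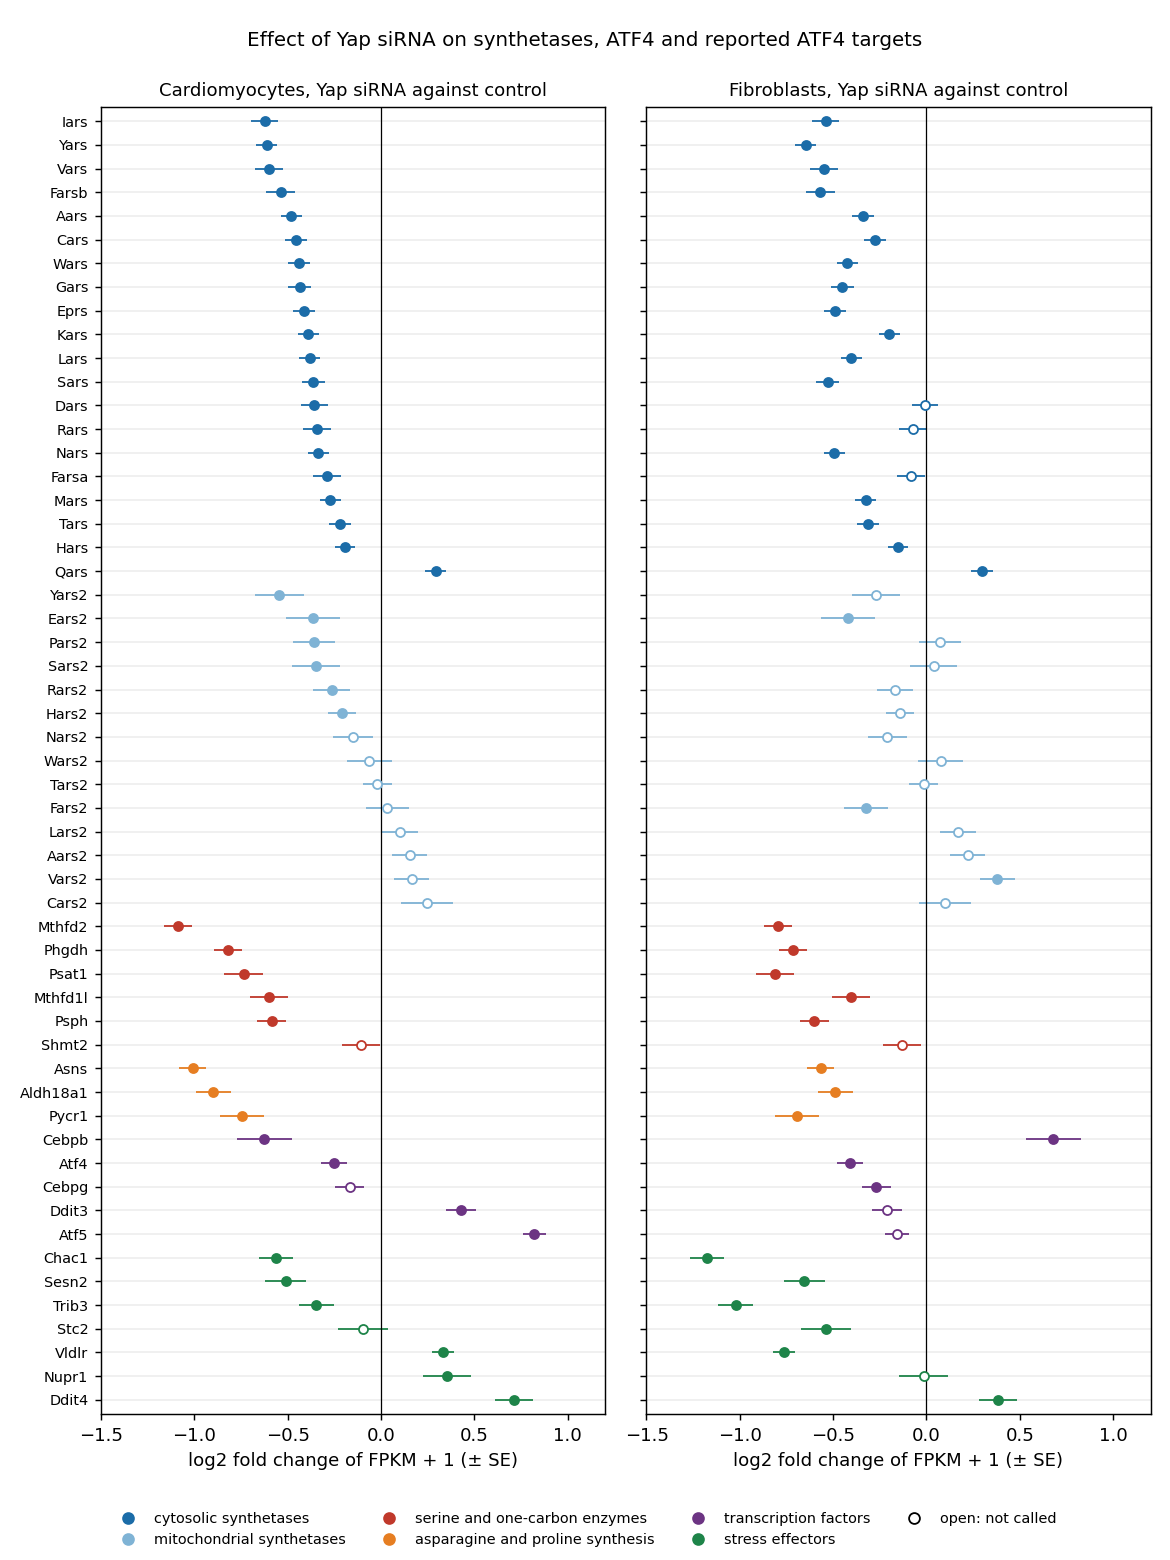
Log2 fold change of FPKM + 1 with its standard error for 55 of the 56 members, knockdown against control cardiomyocytes on the left and knockdown against control fibroblasts on the right, coloured by role. Filled points were called at an adjusted p under 0.05. Points of the cytosolic synthetases lie left of 0 in both panels except Qars, at 0.29 and 0.30.

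Cytosolic synthetases fell almost throughout. In cardiomyocytes 19 of 20 were called lower and 1 higher, with a median log2 fold change of -0.39 (17 lower with median-ratio scaling), and in fibroblasts 16 were called lower, 1 higher and 3 were not called, with a median of -0.37. Summed over the 20 genes, FPKM was 1218, 1201 and 1185 in knockdown cardiomyocytes, against 1566, 1570 and 1529 in control cardiomyocytes, so that the knockdown libraries held 77.3% of the control level. In fibroblasts the sum was 1563, 1563 and 1607 FPKM with Yap siRNA, against 2023, 2051 and 2058 FPKM with control siRNA, or 77.2%. The same 16 genes were called lower in both cell types, as were 6.51% of all genes.

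Yars, the tyrosyl-tRNA synthetase, had 49.3, 48.5 and 47.9 FPKM in knockdown cardiomyocytes, against 74.2, 73.7 and 76.4 FPKM in control cardiomyocytes. In fibroblasts it had 59.6, 59.5 and 65.5 FPKM with Yap siRNA, against 95.8, 98.6 and 96.5 FPKM with control siRNA. Every knockdown library lay below every control library of its cell type, with log2 fold changes of -0.61 ± 0.06 (adjusted p = 7.02e-07) in cardiomyocytes and -0.65 ± 0.06 (adjusted p = 7.12e-07) in fibroblasts. Iars, which charges isoleucine, had 33.5, 32.6 and 36.9 FPKM in knockdown cardiomyocytes, against 52.7, 56.2 and 51.2 FPKM in control cardiomyocytes (log2 fold change -0.62 ± 0.07, adjusted p = 6.67e-06). Its values in fibroblasts were 33.8, 30.8 and 35.4 FPKM with Yap siRNA, against 49.5, 51.0 and 46.2 FPKM with control siRNA (-0.54, adjusted p = 5.3e-05). Both pairs of groups were again separate. The valine enzyme Vars had 26.5, 22.4 and 24.5 FPKM in knockdown cardiomyocytes, against 39.3, 38.9 and 34.5 FPKM in control cardiomyocytes (log2 fold change -0.60 ± 0.07, adjusted p = 1.11e-05). In fibroblasts Vars stood at 33.8, 35.6 and 34.9 FPKM in the knockdown, against 53.5, 51.3 and 49.3 FPKM in the control (-0.55, adjusted p = 5.21e-05). Thus these 3 enzymes fell to between 63.5% and 68.2% of the control mean in each cell type. Farsb, the beta subunit of the phenylalanine enzyme, had 35.3, 33.4 and 38.2 FPKM in knockdown fibroblasts, against 54.5, 52.9 and 52.4 FPKM in control fibroblasts (log2 fold change -0.57 ± 0.08, adjusted p = 4.84e-05). In cardiomyocytes it had 38.8, 34.0 and 42.3 FPKM with Yap siRNA, against 55.6, 56.0 and 56.1 FPKM with control siRNA (-0.54, adjusted p = 3.92e-05). Its partner Farsa, the alpha subunit of the same enzyme, fell in cardiomyocytes (-0.29, adjusted p = 0.00511), while in fibroblasts its groups overlapped (-0.08, adjusted p = 0.433).

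The remaining cytosolic synthetases that fell in cardiomyocytes had log2 fold changes between -0.48 (Aars) and -0.19 (Hars), and those in fibroblasts between -0.53 (Sars) and -0.15 (Hars). Sars, the seryl-tRNA synthetase, had the highest FPKM of the cytosolic members in control cells of either type; it averaged 127 ± 5.74 FPKM in knockdown cardiomyocytes and 164 ± 5.78 FPKM in control cardiomyocytes, and 185 ± 7.77 FPKM in knockdown fibroblasts and 268 ± 10.5 FPKM in control fibroblasts (n = 3 each). Gars and Kars, whose genes each encode both the cytosolic and the mitochondrial enzyme for glycine and for lysine, fell in cardiomyocytes (-0.44, adjusted p = 5.1e-05 and -0.39, adjusted p = 4.41e-05) and in fibroblasts (-0.45, adjusted p = 7.79e-05 and -0.20, adjusted p = 0.0135). The weakest of these calls were Hars in fibroblasts (adjusted p = 0.0471), which was not called without any 1 of the 6 fibroblast libraries (0.0542 to 0.141), Kars in fibroblasts, which was not called without knockdown library 2 (0.0518) or control library 2 (0.0561), and Hars and Tars in cardiomyocytes, which were not called with median-ratio scaling (0.114 and 0.0712).

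Qars, the glutaminyl-tRNA synthetase, rose in both cell types. It had 59.3, 58.9 and 57.7 FPKM in knockdown cardiomyocytes, against 45.3, 48.2 and 49.6 FPKM in control cardiomyocytes, and 72.8, 71.0 and 76.1 FPKM in knockdown fibroblasts, against 59.8, 57.9 and 60.6 FPKM in control fibroblasts. All knockdown libraries lay above all control libraries of their cell type (log2 fold change 0.29 ± 0.06, adjusted p = 0.000646 in cardiomyocytes; 0.30, adjusted p = 0.00114 in fibroblasts). In fibroblasts Dars, for aspartate, and Rars, for arginine, stayed within the spread between libraries (-0.01, adjusted p = 0.942 and -0.07, adjusted p = 0.517), whereas both fell in cardiomyocytes (-0.36, adjusted p = 0.000752 and -0.34, adjusted p = 0.00161). Qars, Dars and Rars belong with Eprs, Iars, Kars, Lars and Mars to the multisynthetase complex, an assembly of cytosolic synthetases around scaffold proteins. Of these 8 members, a grouping made after their values were seen, 5 fell in fibroblasts, 1 rose and 2 were not called; of the 12 cytosolic synthetases outside the complex 11 fell and 1 was not called. In cardiomyocytes the counts were 7 lower and 1 higher inside the complex, and 12 of 12 lower outside it. Among all genes 10.5% were lower and 20.4% higher in fibroblasts, and 28.7% and 21.0% in cardiomyocytes. Because the grouping followed the values, this contrast is no test of complex membership.

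Fewer mitochondrial synthetases were called. In single libraries they had from 2.43 FPKM (Ears2, knockdown cardiomyocytes) to 22.3 FPKM (Hars2, control cardiomyocytes). Cytosolic synthetases had from 22.4 FPKM (Vars, knockdown cardiomyocytes) to 276.9 FPKM (Sars, control fibroblasts). The log2(FPKM + 1) scale understates changes at low levels, and the part of level in the fewer calls was not tested. In cardiomyocytes 6 of 15 were called lower (40.0%, against 28.7% of all genes) and 0 higher, with a median log2 fold change of -0.13, and 2 of the 15 were called lower with median-ratio scaling; quantile normalization gave 2 lower and 2 higher. In fibroblasts 2 were called lower, Ears2 and Fars2, 1 was called higher, Vars2, and 12 were not called (13.3% lower and 6.67% higher, against 10.5% and 20.4% of all genes), with a median of -0.02; after quantile normalization 6 were called lower and 0 higher. Their summed FPKM in knockdown cardiomyocytes was 120.4, 120.4 and 127.1, against 135.7, 129.8 and 135.2 in control cardiomyocytes, and in knockdown fibroblasts 96.0, 96.3 and 96.9, against 97.5, 103.5 and 99.7 in control fibroblasts. Those sums did not overlap in either cell type, and amounted to 91.8% and 96.2% of control. Yars2, the mitochondrial tyrosine enzyme, had the largest fall in cardiomyocytes, with 6.97, 6.54 and 5.89 FPKM in knockdown cardiomyocytes, against 11.2, 10.6 and 8.10 FPKM in control cardiomyocytes (log2 fold change -0.54 ± 0.13, adjusted p = 0.00275). Vars2, the valine enzyme, had 6.72, 6.26 and 6.77 FPKM in knockdown fibroblasts, against 4.72, 5.06 and 4.72 FPKM in control fibroblasts (log2 fold change 0.38 ± 0.09, adjusted p = 0.00664); after quantile normalization it missed the threshold (0.24, adjusted p = 0.0589). The other calls, with adjusted p between 0.0144 and 0.0463, did not hold without single libraries. In cardiomyocytes Pars2 was not called without knockdown library 2 (0.0654), Ears2 without knockdown library 1 or 3 or control library 2 or 3 (0.0548 to 0.234), Sars2 without knockdown library 1 or 2 or control library 1 or 2 (0.0697 to 0.154), Rars2 without knockdown library 3 or control library 1 or 2 (0.106 to 0.127), and Hars2 without any of the 6 except knockdown library 2 (0.0509 to 0.102). In fibroblasts Fars2 was not called without knockdown library 1 or 2 or control library 2 or 3 (0.0861 to 0.181), and Ears2 without any 1 of the 6 (0.0606 to 0.111).

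Enzymes of serine synthesis and mitochondrial one-carbon metabolism fell together: 5 of 6 were called lower in each cell type. Median log2 fold changes were -0.67 in cardiomyocytes and -0.66 in fibroblasts. The share called lower was 83.3% in each, against 28.7% of all genes in cardiomyocytes and 10.5% in fibroblasts. Phgdh, the first enzyme of serine synthesis from 3-phosphoglycerate, had 28.9, 26.1 and 32.4 FPKM in knockdown cardiomyocytes, against 55.7, 50.4 and 50.1 FPKM in control cardiomyocytes. In fibroblasts it had 103, 106 and 111 FPKM with Yap siRNA, against 178, 175 and 173 FPKM with control siRNA. Neither pair of groups overlapped, and Phgdh fell by 0.82 ± 0.07 in cardiomyocytes (adjusted p = 5.75e-07) and by 0.71 ± 0.07 in fibroblasts (adjusted p = 4.01e-06) on the log2 scale. Psat1, the aminotransferase of the next step, had 17.7, 13.0 and 15.5 FPKM in knockdown cardiomyocytes, against 29.0, 27.3 and 22.6 FPKM in control cardiomyocytes (log2 fold change -0.74 ± 0.10, adjusted p = 4.06e-05). Its values in fibroblasts were 35.3, 36.3 and 38.7 FPKM in the knockdown and 62.4, 63.7 and 69.7 FPKM in the control (-0.81, adjusted p = 3.46e-05). The control libraries of each cell type were all higher. Psph, the phosphatase that completes serine, had 21.1, 24.9 and 20.2 FPKM in knockdown cardiomyocytes, against 35.2, 33.5 and 31.9 FPKM in control cardiomyocytes (log2 fold change -0.59 ± 0.08, adjusted p = 2.38e-05). In fibroblasts Psph had 34.7, 38.3 and 35.8 FPKM with Yap siRNA, against 57.0, 53.1 and 56.1 FPKM with control siRNA (-0.60, adjusted p = 4.01e-05). All 3 enzymes of the serine pathway were lower in every knockdown library.

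Mthfd2, a mitochondrial dehydrogenase of folate-bound one-carbon units and the member with the largest fold change in cardiomyocytes, had 33.8, 27.7 and 31.1 FPKM in knockdown cardiomyocytes, against 68.4, 71.1 and 60.4 FPKM in control cardiomyocytes. In fibroblasts it had 46.1, 45.8 and 47.1 FPKM with Yap siRNA, against 81.8, 79.7 and 81.7 FPKM with control siRNA. The knockdown means were 46.3% and 57.1% of control, with log2 fold changes of -1.09 ± 0.08 (adjusted p = 5.35e-08) in cardiomyocytes and -0.79 ± 0.08 (adjusted p = 1.75e-06) in fibroblasts. Mthfd1l, which releases formate from mitochondria, had 8.31, 6.45 and 7.90 FPKM in knockdown cardiomyocytes, against 12.2, 12.8 and 10.8 FPKM in control cardiomyocytes (log2 fold change -0.60 ± 0.10, adjusted p = 0.000227). Its values in fibroblasts were 11.3, 11.2 and 13.3 FPKM in the knockdown and 17.0, 16.3 and 15.0 FPKM in the control (-0.41, adjusted p = 0.00775). Shmt2, which passes the one-carbon unit of serine to folate in mitochondria, was the exception: it had 45.1, 34.9 and 46.7 FPKM in knockdown cardiomyocytes, against 49.8, 47.2 and 39.5 FPKM in control cardiomyocytes, where the groups overlapped (-0.11, adjusted p = 0.393), and 73.4, 67.2 and 74.8 FPKM in knockdown fibroblasts, against 80.2, 79.2 and 76.9 FPKM in control fibroblasts (-0.13, adjusted p = 0.352), where the knockdown libraries were lower but the difference was not called. In cardiomyocytes the value of Shmt2 was 0.02 without knockdown library 2.

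Enzymes of asparagine and proline synthesis were 3 of 3 lower in each cell type, with medians of -0.90 and -0.57. Among all genes 28.7% were called lower in cardiomyocytes and 10.5% in fibroblasts. Asns, asparagine synthetase, had 32.7, 27.3 and 30.8 FPKM in knockdown cardiomyocytes, against 64.0, 64.7 and 57.0 FPKM in control cardiomyocytes. In fibroblasts Asns had 101, 104 and 103 FPKM with Yap siRNA, against 159, 147 and 153 FPKM with control siRNA. Knockdown cells held 48.9% of the control mean in cardiomyocytes and 67.3% in fibroblasts, with log2 fold changes of -1.01 ± 0.07 (adjusted p = 6.18e-08) and -0.57 ± 0.07 (adjusted p = 3.04e-05). Aldh18a1, which makes the pyrroline carboxylate that proline is built from, had 13.1, 10.2 and 14.03 FPKM in knockdown cardiomyocytes, against 23.9, 25.9 and 22.1 FPKM in control cardiomyocytes (log2 fold change -0.90 ± 0.09, adjusted p = 2.54e-06). Its values in fibroblasts were 45.6, 42.4 and 46.0 FPKM with Yap siRNA and 63.2, 62.7 and 63.4 FPKM with control siRNA (-0.49, adjusted p = 0.00114). Pycr1, the reductase that completes proline, had 9.48, 6.49 and 6.50 FPKM in knockdown cardiomyocytes, against 13.5, 13.4 and 12.3 FPKM in control cardiomyocytes (log2 fold change -0.75 ± 0.12, adjusted p = 0.000111). In fibroblasts Pycr1 had 18.4, 16.0 and 20.1 FPKM in the knockdown, against 28.6, 30.7 and 30.5 FPKM in the control (-0.70, adjusted p = 0.000411). None of these 6 pairs of groups overlapped.

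Transcription factors of the set did not move together. Atf4 itself had 286, 242 and 261 FPKM in knockdown cardiomyocytes, against 322, 312 and 305 FPKM in control cardiomyocytes. In fibroblasts Atf4 had 358, 403 and 364 FPKM with Yap siRNA, against 487, 484 and 522 FPKM with control siRNA. It was lower in every knockdown library, with log2 fold changes of -0.25 ± 0.07 (adjusted p = 0.00793) in cardiomyocytes and -0.41 ± 0.07 (adjusted p = 0.000465) in fibroblasts, and the cardiomyocyte call was lost with median-ratio scaling (-0.17, adjusted p = 0.0516). Cebpg, a C/EBP protein that pairs with ATF4, fell in fibroblasts (-0.27, adjusted p = 0.0152) and was not called in cardiomyocytes (-0.17, adjusted p = 0.0834); the fibroblast call was lost without knockdown library 1 (adjusted p = 0.0834) or control library 1 (0.0612), and Cebpg was called in cardiomyocytes without control library 3 (-0.23, adjusted p = 0.0259). Atf5, the closest relative of ATF4, rose in cardiomyocytes, with 151, 145 and 141 FPKM in knockdown cardiomyocytes, against 79.1, 78.6 and 88.9 FPKM in control cardiomyocytes (log2 fold change 0.82 ± 0.06, adjusted p = 1.07e-07). In fibroblasts Atf5 had 467, 484 and 506 FPKM with Yap siRNA, against 536, 552 and 537 FPKM with control siRNA (-0.16, adjusted p = 0.0662). Ddit3, which encodes CHOP, likewise had 98.7, 107 and 90.3 FPKM in knockdown cardiomyocytes, against 80.1, 69.4 and 69.8 FPKM in control cardiomyocytes (log2 fold change 0.43 ± 0.08, adjusted p = 0.000451). Its fibroblast values were 144, 150.1 and 136 FPKM in the knockdown and 158, 159.9 and 182 FPKM in the control (-0.21, adjusted p = 0.0568). Both Atf5 and Ddit3 were called lower in fibroblasts with median-ratio scaling (adjusted p = 0.0258 and 0.026) and when the fit held fibroblasts alone (0.0273 and 0.0286).

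Cebpb, a C/EBP factor of stress and inflammatory responses, went in opposite directions in the 2 cell types. It had 19.8, 13.7 and 19.7 FPKM in knockdown cardiomyocytes, against 34.4, 27.4 and 22.0 FPKM in control cardiomyocytes (log2 fold change -0.63 ± 0.15, adjusted p = 0.00256). In fibroblasts it had 70.4, 83.4 and 74.4 FPKM with Yap siRNA, against 45.3, 51.4 and 44.6 FPKM with control siRNA (log2 fold change 0.68 ± 0.15, adjusted p = 0.00263). The groups did not overlap in either cell type.

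**Figure D2:**
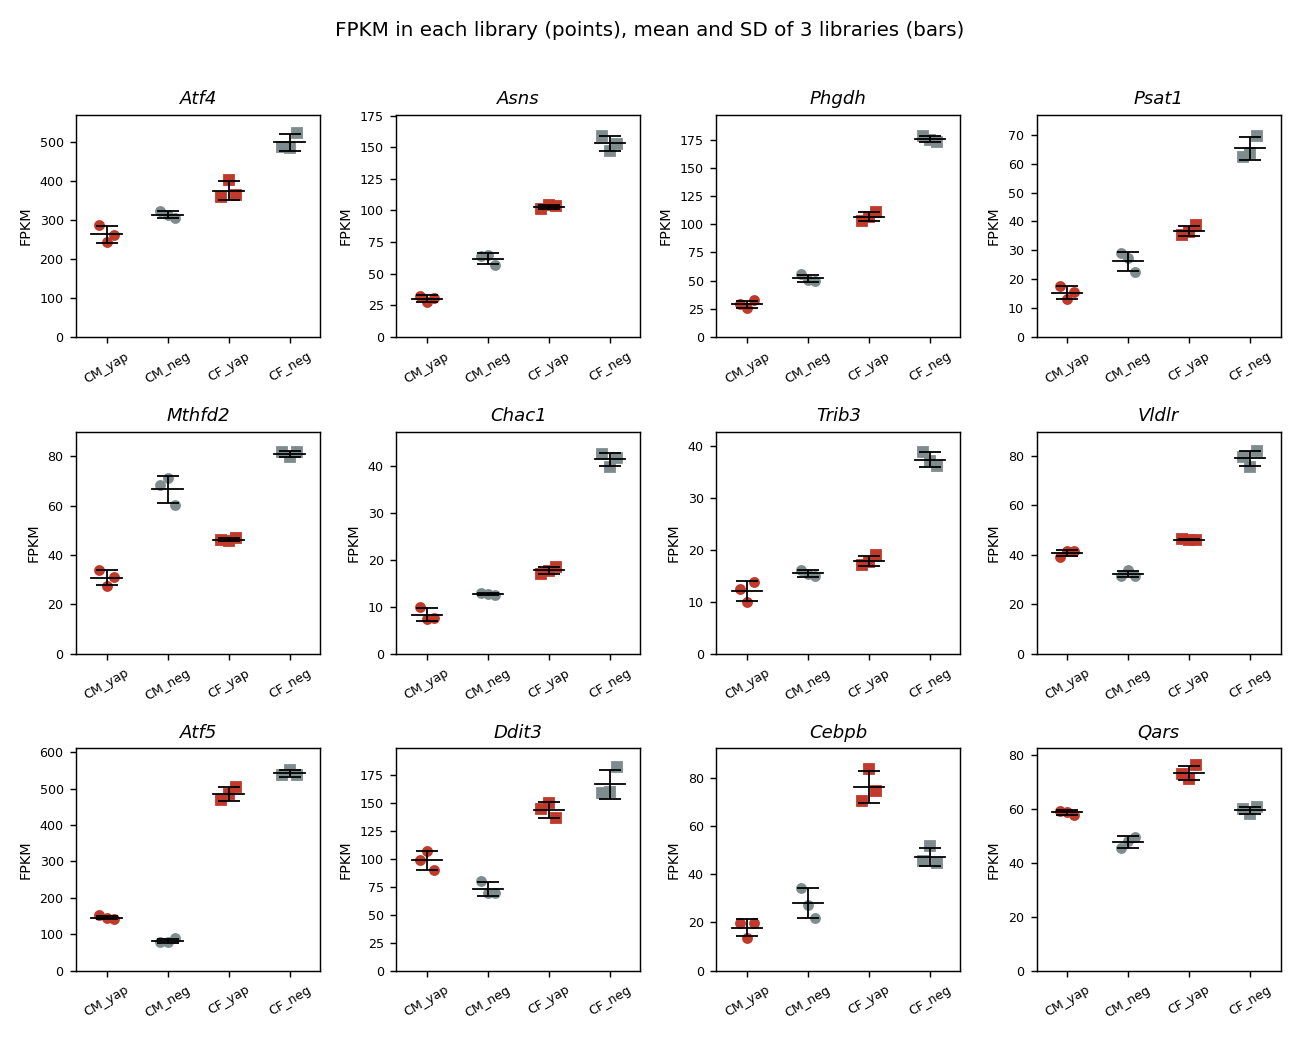
FPKM of 12 members in each library (points, circles for cardiomyocytes and squares for fibroblasts, red for Yap siRNA and grey for control siRNA), with the mean and SD of 3 libraries as bars; each panel has its own axis that starts at 0. Asns, Phgdh, Psat1 and Mthfd2 are lower in both knockdown groups, Atf5 and Ddit3 are higher in knockdown than in control cardiomyocytes, and Cebpb is lower in knockdown cardiomyocytes and higher in knockdown fibroblasts.

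Among the 7 stress effectors 3 rose and 3 fell in cardiomyocytes (median -0.10), and 1 rose and 5 fell in fibroblasts (median -0.65). As shares, 42.9% rose and 42.9% fell in cardiomyocytes, against 21.0% and 28.7% of all genes. In fibroblasts 14.3% rose and 71.4% fell, against 20.4% and 10.5%. Chac1, an enzyme that breaks down glutathione, had 17.0, 17.8 and 18.6 FPKM in knockdown fibroblasts, against 42.7, 39.9 and 41.9 FPKM in control fibroblasts (log2 fold change -1.18 ± 0.09, adjusted p = 2.13e-07), the largest change of any member in fibroblasts. In cardiomyocytes Chac1 had 9.96, 7.43 and 7.72 FPKM with Yap siRNA, against 13.1, 12.7 and 12.5 FPKM with control siRNA (-0.56, adjusted p = 0.000132). Trib3, a pseudokinase that acts back on ATF4 and CHOP, had 17.1, 17.6 and 19.0 FPKM in knockdown fibroblasts, against 38.9, 37.1 and 36.1 FPKM in control fibroblasts (log2 fold change -1.02 ± 0.09, adjusted p = 1.23e-06). Its cardiomyocyte values were 12.4, 9.99 and 13.8 FPKM in the knockdown and 16.2, 15.3 and 14.9 FPKM in the control (-0.35, adjusted p = 0.00673). Both genes were lower in all knockdown libraries of both cell types. Sesn2, which restrains mTORC1 when leucine is low, had 17.0, 16.2 and 19.4 FPKM in knockdown fibroblasts, against 29.6, 30.1 and 24.9 FPKM in control fibroblasts (log2 fold change -0.65 ± 0.11, adjusted p = 0.000356). In cardiomyocytes Sesn2 had 10.9, 8.48 and 11.8 FPKM with Yap siRNA, against 14.7, 15.5 and 15.1 FPKM with control siRNA (-0.51, adjusted p = 0.0013). Stc2, a secreted glycoprotein, fell in fibroblasts, with 17.1, 13.8 and 15.2 FPKM in knockdown fibroblasts, against 21.7, 24.8 and 21.8 FPKM in control fibroblasts (log2 fold change -0.54 ± 0.13, adjusted p = 0.00671), and overlapped between cardiomyocyte groups (-0.10, adjusted p = 0.58).

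Ddit4, also called REDD1, another inhibitor of mTORC1, rose in both cell types. It had 10.3, 7.69 and 8.85 FPKM in knockdown cardiomyocytes, against 4.71, 5.68 and 4.77 FPKM in control cardiomyocytes (log2 fold change 0.71 ± 0.10, adjusted p = 4.29e-05). In fibroblasts Ddit4 had 25.6, 24.7 and 28.3 FPKM with Yap siRNA, against 19.1, 19.7 and 20.8 FPKM with control siRNA (0.38, adjusted p = 0.00992), a call that was lost without knockdown library 3 (adjusted p = 0.0511). Vldlr, the very low density lipoprotein receptor, fell in fibroblasts, with 46.2, 45.9 and 46.1 FPKM in knockdown fibroblasts, against 79.4, 75.5 and 81.8 FPKM in control fibroblasts (log2 fold change -0.76 ± 0.06, adjusted p = 2.05e-07). In cardiomyocytes it rose, with 39.1, 41.7 and 41.3 FPKM in the knockdown, against 31.6, 33.7 and 31.3 FPKM in the control (log2 fold change 0.33 ± 0.06, adjusted p = 0.000293). Neither pair of Vldlr groups overlapped. Nupr1, a small nuclear stress protein, had 145, 123.43 and 96.8 FPKM in knockdown cardiomyocytes, against 105, 99.7 and 78.7 FPKM in control cardiomyocytes, with overlapping groups (log2 fold change 0.36 ± 0.13, adjusted p = 0.0327); this call was lost without knockdown library 1 (adjusted p = 0.169), knockdown library 2 (0.0795) or control library 3 (0.157). In fibroblasts Nupr1 had 699, 719 and 619 FPKM with Yap siRNA, against 650.5, 660.1 and 748 FPKM with control siRNA (-0.02, adjusted p = 0.942).

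Members with the motif in their promoter window were set beside those without it. Of the 11 members with a match, 10 fell and 1 was not called in fibroblasts, with a median log2 fold change of -0.49; of the 40 with a window and no match, 21 fell, 4 rose and 15 were not called, with a median of -0.24. In cardiomyocytes 10 fell and 1 rose among members with a match (median -0.45), and 24 fell, 5 rose and 11 were not called among those without (median -0.28). Both sets fell more often than all genes, of which 10.5% were called lower in fibroblasts and 28.7% in cardiomyocytes. The shares of all genes called higher were 20.4% and 21.0%. Nupr1 was the member with a match that did not fall in either cell type. Members without a match in the window included Asns, Phgdh, Psat1 and Mthfd2, which fell, and Qars, which rose. The 2 sets also differ in role: 7 of the 11 with a match were cytosolic synthetases, and all 14 mitochondrial synthetases with a window lacked it. Among cytosolic synthetases in fibroblasts, those with a match ranged from -0.65 (Yars) to -0.28 (Cars). Those without ranged from -0.57 (Farsb) to 0.30 (Qars), and included Vars (-0.55) and Sars (-0.53). The part of role in the contrast was not tested. The search covered 1 motif in 1 window per gene, and says nothing of elements outside it.

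The second question was whether the response differed between the cell types, tested as the effect in cardiomyocytes minus the effect in fibroblasts. Of the 56 members 11 were called, 5 with a higher effect in cardiomyocytes and 6 with a lower one (8.93% and 10.7%), against 11.7% and 23.7% of all genes and 35.3% in both directions. This difference carried a shift of all genes: its median was -0.13 over all genes, against -0.01 with median-ratio scaling and 0.004 under quantile normalization, and the split of the called members became 12 higher and 2 lower, or 8 and 3. Of the 20 cytosolic synthetases 19 were not called different, with a median difference of -0.01 and a range of -0.35 to 0.17, which does not show that the responses were equal; with median-ratio scaling 2 were called higher and 0 lower.

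Cebpb had the largest difference, -1.30 ± 0.21 (adjusted p = 0.000263), with its fall in cardiomyocytes and rise in fibroblasts; it was -1.18 with median-ratio scaling. Vldlr differed the other way, by 1.09 ± 0.08 (adjusted p = 2.64e-07) and by 1.22 under that scaling. Atf5 differed by 0.98 ± 0.09 (adjusted p = 1.61e-06; 1.11 with that scaling) and Ddit3 by 0.64 ± 0.11 (adjusted p = 0.000619; 0.77 with that scaling), both higher in knockdown cardiomyocytes and, without a call, lower in knockdown fibroblasts. Trib3 differed by 0.68 ± 0.13 (adjusted p = 0.00137; 0.80 with that scaling) and Chac1 by 0.62 ± 0.13 (adjusted p = 0.00208; 0.74 with that scaling): both fell in both cell types, and less in cardiomyocytes. The difference for Asns, which fell more in cardiomyocytes, was -0.44 ± 0.10 (adjusted p = 0.00376; -0.31 with that scaling). These 7 differences were called in every alternative and without each library in turn. The other 4, Pars2 (-0.43, adjusted p = 0.0445), Aldh18a1 (-0.41, adjusted p = 0.0267), Dars (-0.35, adjusted p = 0.015) and Mthfd2 (-0.29, adjusted p = 0.0456), were not called with median-ratio scaling (adjusted p = 0.119, 0.0925, 0.0942 and 0.221). Aldh18a1 was also lost without control cardiomyocyte library 2, knockdown fibroblast library 1 or 3 or control fibroblast library 2 (0.0519 to 0.0696), and Pars2 and Mthfd2 were each lost without 9 and 10 of the 12 libraries in turn (0.0581 to 0.106 and 0.0542 to 0.113). All 7 stress effectors had a difference above 0, of which 3 were called (6 with median-ratio scaling and 5 after quantile normalization). Among the marker lists, the difference was called lower in 7 of 10 endothelial, 3 of 3 tested epicardial, 2 of 3 tested erythroid and 3 of 9 fibroblast markers, with 0 higher. It was called higher in 5 and lower in 0 of 8 smooth muscle and pericyte markers, in 6 and 1 of 11 cardiomyocyte markers and in 1 and 2 of 10 leukocyte markers. Over all genes this difference was called lower in 23.7% and higher in 11.7%. The part of these markers in the differences was not tested.

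**Figure D3:**
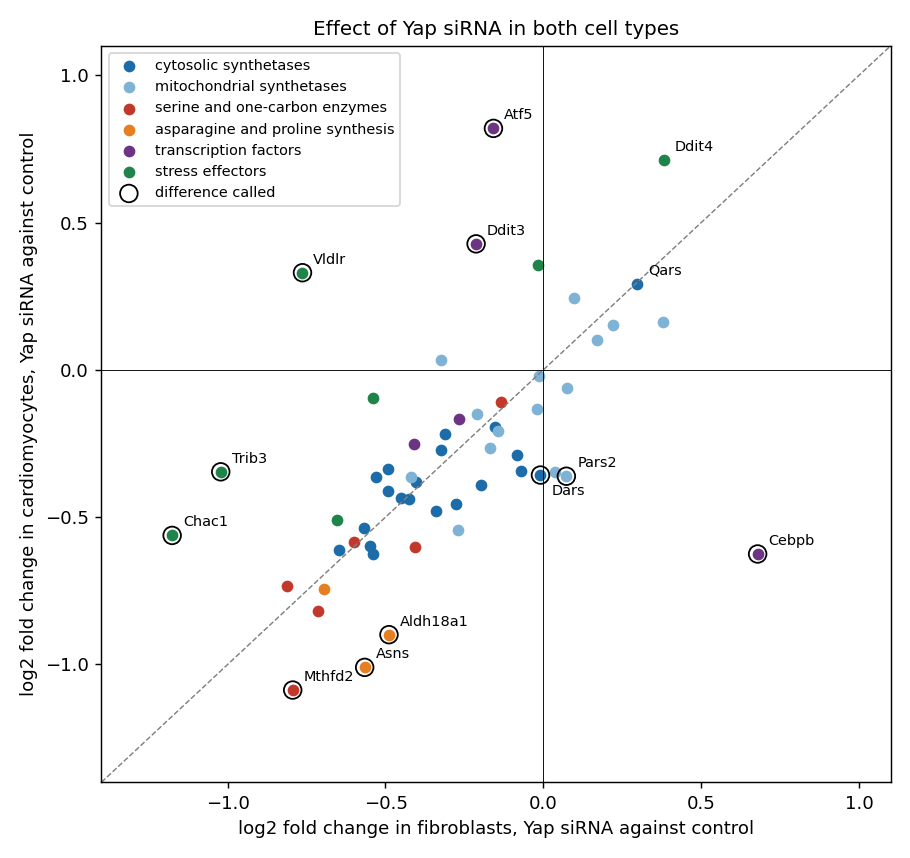
Each point is a member, placed by its log2 fold change with Yap siRNA in fibroblasts (horizontal axis) and in cardiomyocytes (vertical axis), coloured by role; the dashed line marks equal values, and circled points are the 11 members whose difference was called. Most synthetases and biosynthetic enzymes lie in the lower left, with Chac1 and Trib3 above the line, Asns, Aldh18a1 and Mthfd2 below it, and Vldlr, Atf5, Ddit3 and Cebpb in the corners of opposite sign.

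The third comparison set control cardiomyocytes against control fibroblasts, and shares its libraries with the comparisons above. Of the members 34 were called lower in cardiomyocytes and 12 higher, 60.7% and 21.4%, against 26.4% and 42.0% of all genes and 68.4% in both directions. The median over all genes was 0.125, against 0.01 with median-ratio scaling and -0.06 under quantile normalization, and the counts of members called higher were 6 under each, beside 34 and 36 called lower. All 21 members that are not synthetases were called lower in cardiomyocytes, and this held under both scalings. Over all 56 members the control cardiomyocyte libraries lay wholly below the control fibroblast libraries in 34 and wholly above in 14, against 28.4% and 44.9% of all genes. Summed FPKM in control cardiomyocytes amounted to 49.97% of control fibroblasts for serine and one-carbon enzymes, 40.2% for asparagine and proline synthesis, 40.4% for the transcription factors and 19.98% for the stress effectors.

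Nupr1 had 105, 99.7 and 78.7 FPKM in control cardiomyocytes, against 650.5, 660.1 and 748 FPKM in control fibroblasts. Atf5 had 79.1, 78.6 and 88.9 FPKM in control cardiomyocytes, against 536, 552 and 537 FPKM in control fibroblasts. These were the largest differences of the set, at -2.86 ± 0.13 (adjusted p = 1.62e-11; -2.99 with median-ratio scaling) and -2.71 ± 0.06 (adjusted p = 5.57e-15; -2.84 with that scaling). Ddit4 followed with 4.71, 5.68 and 4.77 FPKM in control cardiomyocytes, against 19.1, 19.7 and 20.8 FPKM in control fibroblasts (log2 fold change -1.79 ± 0.10, adjusted p = 2.82e-10), or -1.91 with that scaling. Phgdh and Chac1, whose values in each library are given above, and Stc2 differed by -1.74 ± 0.07 (adjusted p = 7.65e-12), -1.63 ± 0.09 (adjusted p = 2.19e-10) and -1.44 ± 0.13 (adjusted p = 1.2e-07); with median-ratio scaling these were -1.87, -1.76 and -1.57. The level of Atf4 itself differed by -0.67 ± 0.07 (adjusted p = 5.21e-07), or by -0.80 with median-ratio scaling. Stc2 had 8.42, 5.88 and 7.39 FPKM in knockdown cardiomyocytes and 8.25, 9.03 and 6.15 FPKM in control cardiomyocytes, all below every fibroblast library.

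Levels of synthetases were read by compartment. Cytosolic enzymes were mostly lower in control cardiomyocytes than in control fibroblasts, with 13 of 20 called lower and 3 higher (Dars, Hars and Rars, 0 under either scaling), a median of -0.39 and a summed FPKM of 76.1%. As shares, 65.0% were lower and 15.0% higher, against 26.4% and 42.0% of all genes. Eprs, which charges glutamate and proline, differed most (-0.82, adjusted p = 5.38e-09; -0.96 with median-ratio scaling). Mitochondrial enzymes were 9 of 15 higher and 0 lower, with a median of 0.33 and a summed FPKM of 133.3%, and 6 of the 15 were called higher under each scaling. Without rescaling, 60.0% were called higher, against 42.0% of all genes. Hars2, the histidine enzyme, had 21.6, 21.0 and 22.3 FPKM in control cardiomyocytes, against 11.8, 12.5 and 10.6 FPKM in control fibroblasts (log2 fold change 0.84 ± 0.08, adjusted p = 7.79e-08), or 0.72 with median-ratio scaling. Lars2, for leucine, had 7.87, 8.71 and 9.48 FPKM in control cardiomyocytes, against 5.12, 5.17 and 4.29 FPKM in control fibroblasts (log2 fold change 0.73 ± 0.10, adjusted p = 7.49e-06), or 0.61 with that scaling. Of 70 mitochondrial ribosomal protein genes, which serve the same mitochondrial translation, 64 were called higher and 2 lower in control cardiomyocytes (54 and 3 with median-ratio scaling). Their shares without rescaling were 91.4% higher and 2.86% lower, against 42.0% and 26.4% of all genes.

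**Figure D4:**
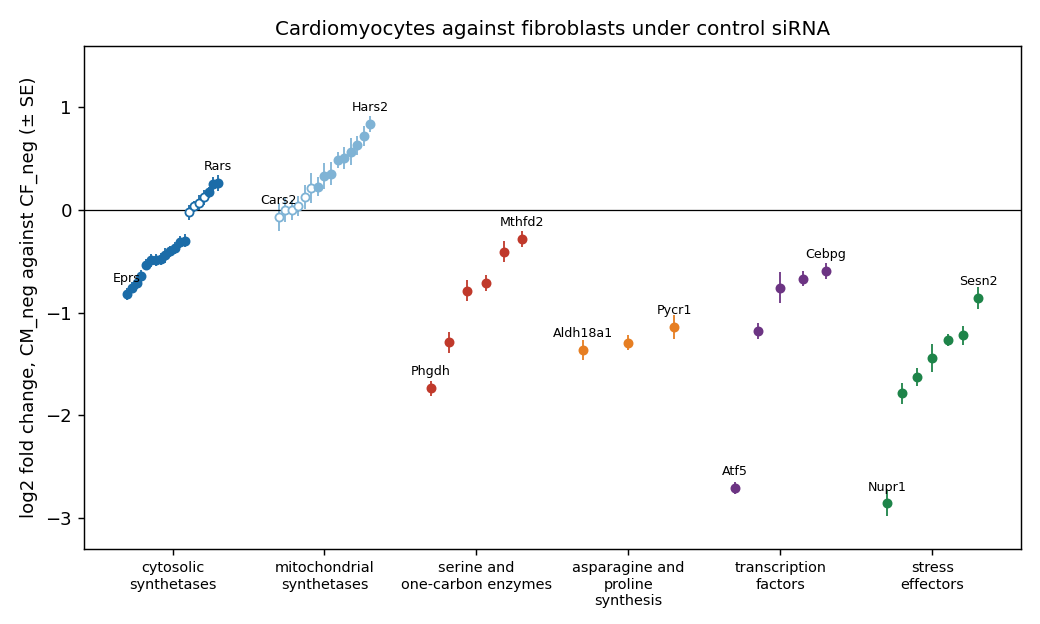
Log2 fold change of FPKM + 1 with its standard error, control cardiomyocytes against control fibroblasts, for the 56 members sorted within each role; filled points were called. All members outside the synthetases lie below 0, and mitochondrial synthetases reach up to 0.84 (Hars2).

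Genes around the members were read from lists of the same pathway. These lists too were chosen with earlier results of these data known, so their shares are descriptions. Of 15 genes for eIF2 kinases, eIF2 subunits, its exchange factor eIF2B and its phosphatase, 7 were called lower and 0 higher in cardiomyocytes, and 3 lower and 3 higher in fibroblasts (medians -0.15 and -0.06); with median-ratio scaling the fibroblast counts were 5 lower and 1 higher. The cardiomyocyte share was 46.7% lower, against 28.7% lower and 21.0% higher among all genes. In fibroblasts 10.5% of all genes were lower and 20.4% higher. In cardiomyocytes the phosphatase subunits Ppp1r15b and Ppp1cb fell (-0.59, adjusted p = 6.04e-05 and -0.50, adjusted p = 8.43e-06), and so did Eif2s1, the alpha subunit of eIF2 (-0.29, adjusted p = 0.00427). Eif2b2, the beta subunit of eIF2B, fell in cardiomyocytes (-0.51, adjusted p = 9.68e-06) and in fibroblasts (-0.32, adjusted p = 0.00135). In fibroblasts Eif2s2 and Eif2b3 fell (-0.44, adjusted p = 0.00124 and -0.57, adjusted p = 0.00338), and the eIF2 kinase Eif2ak1 rose (0.29, adjusted p = 0.00547).

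Among 9 genes for synthetase partners and tRNA handling, 5 fell in each cell type, 1 rose in cardiomyocytes and 0 rose in fibroblasts (medians -0.32 and -0.35). In all, 55.6% were lower in each, against 28.7% of all genes in cardiomyocytes and 10.5% in fibroblasts. Eef1e1, a scaffold of the multisynthetase complex also called AIMP3, had 29.8 ± 1.77 FPKM in knockdown cardiomyocytes and 65.7 ± 8.21 FPKM in control cardiomyocytes, and 25.1 ± 3.03 FPKM in knockdown fibroblasts and 50.1 ± 2.05 FPKM in control fibroblasts (-1.11, adjusted p = 3.5e-07 in cardiomyocytes, -0.97, adjusted p = 2.25e-06 in fibroblasts). Nsun2, a tRNA methyltransferase, fell as well (-0.69, adjusted p = 3.36e-06 in cardiomyocytes, -0.48, adjusted p = 0.000201 in fibroblasts). So did Xpot, the exporter of tRNA from the nucleus (-0.62, adjusted p = 0.000128, and -0.60, adjusted p = 0.000396), and the scaffold Aimp2 (-0.43, adjusted p = 0.000169, and -0.37, adjusted p = 0.0011).

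Other reported ATF4 targets were called in both directions: of 17 tested of 19 in the table, 6 fell and 4 rose in cardiomyocytes, and 6 fell and 3 rose in fibroblasts (medians -0.05 and -0.17); the cardiomyocyte median was 0.03 with median-ratio scaling, and 10 fell and 2 rose in fibroblasts after quantile normalization. In cardiomyocytes 35.3% were lower and 23.5% higher, near the 28.7% and 21.0% of all genes. In fibroblasts the shares were 35.3% and 17.6%, against 10.5% and 20.4% of all genes. Cth, which makes cysteine from cystathionine, had 7.71 ± 0.63 FPKM in knockdown fibroblasts and 24.6 ± 0.75 FPKM in control fibroblasts (-1.56, adjusted p = 1.98e-07), and 1.85 ± 0.30 FPKM in knockdown cardiomyocytes and 4.75 ± 0.95 FPKM in control cardiomyocytes (-1.004, adjusted p = 7.72e-06). In cardiomyocytes the secreted stress factor Gdf15 fell (-0.98, adjusted p = 0.000117), and so did the transcription factor Atf3 (-0.76, adjusted p = 0.000152). In fibroblasts Eif4ebp1, a repressor of cap-dependent translation, fell (-0.64, adjusted p = 8.34e-07), and so did Slc3a2, the heavy chain of several amino acid exchangers (-0.50, adjusted p = 1.36e-05). Map1lc3b, a membrane component of autophagosomes, rose in cardiomyocytes (0.67, adjusted p = 8.76e-07) and in fibroblasts (0.47, adjusted p = 5.4e-05).

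Of 21 amino acid transporters 11 fell and 3 rose in cardiomyocytes, and 7 fell and 1 rose in fibroblasts (medians -0.31 and 0.05; the fibroblast median was -0.07 after quantile normalization). The shares were 52.4% lower and 14.3% higher in cardiomyocytes, against 28.7% and 21.0% of all genes. In fibroblasts they were 33.3% and 4.76%, against 10.5% and 20.4%. Slc7a5, the light chain of the leucine exchanger, had 19.6 ± 2.67 FPKM in knockdown cardiomyocytes and 34.6 ± 3.71 FPKM in control cardiomyocytes (-0.80, adjusted p = 1.27e-05), and 73.0 ± 5.25 FPKM in knockdown fibroblasts and 132 ± 8.51 FPKM in control fibroblasts (-0.85, adjusted p = 1.4e-05). In cardiomyocytes Slc1a4, a carrier of alanine, serine and cysteine, Slc38a1, a carrier of glutamine, and Slc7a6 also fell (-1.33, adjusted p = 1.86e-06; -0.76, adjusted p = 8.7e-05; -0.71, adjusted p = 6.57e-05). In fibroblasts Slc7a3, a carrier of cationic amino acids, fell (-1.07, adjusted p = 6.7e-05), while Slc43a2, a carrier of large neutral amino acids, rose (1.14, adjusted p = 2.78e-06).

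Of 13 tested genes for other folate enzymes and the glycine cleavage system, 7 fell and 1 rose in cardiomyocytes, and 6 fell and 0 rose in fibroblasts (medians -0.22 and -0.24). The shares lower were 53.8% and 46.2%, against 28.7% and 10.5% of all genes. Mthfd1, the cytosolic counterpart of the mitochondrial folate enzymes, fell in cardiomyocytes (-0.55, adjusted p = 1.48e-05) and in fibroblasts (-0.58, adjusted p = 1.99e-05). Thymidylate synthase, Tyms, and the purine enzyme Gart also fell in both (-0.60, adjusted p = 1.27e-05 and -0.61, adjusted p = 3.87e-05 in cardiomyocytes; -0.34, adjusted p = 0.00282 and -0.30, adjusted p = 0.0148 in fibroblasts). Shmt1, the cytosolic counterpart of Shmt2, fell in cardiomyocytes (-0.77, adjusted p = 1.25e-05), and Gcsh of the glycine cleavage system fell in fibroblasts (-0.60, adjusted p = 8.21e-05).

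Endoplasmic reticulum chaperones and quality control genes, which the unfolded protein response raises through factors other than ATF4 as well, held more rises in cardiomyocytes and more falls in fibroblasts. In cardiomyocytes 7 of 21 rose and 3 fell, with a median log2 fold change of 0.09 (12 and 2 with median-ratio scaling), and in fibroblasts 1 rose and 13 fell, with a median of -0.24. The shares were 33.3% higher and 14.3% lower in cardiomyocytes, against 21.0% and 28.7% of all genes. In fibroblasts they were 4.76% and 61.9%, against 20.4% and 10.5%. The difference between cell types was called higher in 13 of the 21 and lower in 0 (13 and 2 after quantile normalization). Hspa5, the chaperone BiP, had 1014 ± 74.7 FPKM in knockdown cardiomyocytes and 754 ± 26.3 FPKM in control cardiomyocytes (0.43, adjusted p = 7.22e-05), and 463 ± 3.81 FPKM in knockdown fibroblasts and 633 ± 9.84 FPKM in control fibroblasts (-0.45, adjusted p = 8.47e-05). In cardiomyocytes Calr and Hyou1 also rose (0.59, adjusted p = 8.84e-06 and 0.60, adjusted p = 4.91e-06), while Pdia4, a protein disulfide isomerase, fell there (-0.40, adjusted p = 5.24e-05). In fibroblasts Pdia4, Hsp90b1 and Dnajb9 fell (-0.37, adjusted p = 0.000195; -0.42, adjusted p = 0.000235; -0.48, adjusted p = 0.000572).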

How the data were processed

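Gene-level FPKM values of the 12 libraries were made and deposited by the authors as 1 table of 14636 genes; HISAT, Bowtie2 and rn6 are named per the submitters' processing notes, with no versions. FPKM is scaled to each library's total, so a change in a few abundant genes shifts all others. Read counts could not be recovered, so depth and counting error are unknown.

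Values were tested as log2(FPKM + 1) in limma 3.58.1 (R 4.3.3) with a mean-variance trend, all 4 groups in 1 fit without a replicate term, over 11302 genes with a mean FPKM of 0.5 or more, two-sided, with Benjamini-Hochberg adjustment over all of them and a threshold of 0.05. An exact permutation test of 3 libraries against 3 cannot go below p = 0.1, and none was used. The fit was tested on simulated data. Alternatives changed the pseudocount, the filter, the scaling (median-ratio or quantile), the variance trend, the replicate term, the libraries in the fit, or left out 1 library.

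Values in every library were given for Atf4, for up to 14 called members per siRNA comparison with the largest absolute fold change and at least 5 FPKM in the higher group, for the 6 largest of each other comparison and for members that moved against their role; other lists gave up to 4 called genes each, by smallest p. The members and lists were chosen with earlier results of these data known. Promoters were matched by gene identifier in Python 3.11.15 (pandas 2.3.3). 1 member is counted in the totals and is not reported by name. The 26 damaged symbols in the table were restored from identifiers.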

Additional observations from a re-analysis of the deposited data

Results flagged for a closer look

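The response to Yap siRNA differed between cardiomyocytes and fibroblasts, by limma's test of the difference itself with Benjamini-Hochberg adjustment over all genes, in 11 of the 56 members (35.3% of all genes). The difference is the log2 fold change in cardiomyocytes minus that in fibroblasts. This difference was called above 0 in 8.93% of the members and below 0 in 10.7%, against 11.7% and 23.7% of all genes. It was above 0 for Vldlr (1.093), Atf5 (0.979), Trib3 (0.676), Ddit3 (0.641) and Chac1 (0.615). It was below 0 for Cebpb (-1.304), Asns (-0.444), Pars2 (-0.434), Aldh18a1 (-0.41), Dars (-0.348) and Mthfd2 (-0.293). Of these, Pars2, Aldh18a1, Dars and Mthfd2 were not called with median-ratio scaling (adjusted p = 0.119, 0.0925, 0.0942 and 0.221). For Vldlr and Cebpb the effect was called in both cell types with opposite signs. With 3 libraries per group, no library was examined as standing apart from its group.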

How the results depend on the processing

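Calls held in every alternative and without each library for 35 of 44 members called in cardiomyocytes, 30 of 37 in fibroblasts, 7 of 11 for the difference between cell types and 40 of 46 for control cardiomyocytes against control fibroblasts. Scaling moved counts most. Members called for a higher effect in cardiomyocytes numbered 12 with median-ratio scaling and 8 after quantile normalization, beside 5 as reported, and those called for a lower effect 2 and 3, beside 6. Members called higher in control cardiomyocytes numbered 6 under either scaling, beside 12. Over all genes, 1852 were called lower in fibroblasts after quantile normalization, beside 1184, and 1747 (median-ratio) and 1716 (quantile) had a lower effect in cardiomyocytes, beside 2673. Without 1 library, the members with a lower effect in cardiomyocytes ranged between 3 and 7; the count was 3 without control cardiomyocyte library 2, knockdown fibroblast library 1 or control fibroblast library 2. Scaling also turned signs: the difference between cell types was above 0 in 27 of 56 members as reported, in 40 with median-ratio scaling and in 39 after quantile normalization, and control cardiomyocytes were above control fibroblasts in 19 members, 14 and 11. Among members named in the text, after quantile normalization Stc2 was 0.001 in cardiomyocytes, Pars2 -0.078 and Nupr1 0.03 in fibroblasts, and Hars, called higher as reported, -0.006 between control cells. Without 1 library, Shmt2 ranged from -0.205 to 0.019 and Stc2 from -0.239 to 0.028 in cardiomyocytes, and in fibroblasts Dars ranged from -0.034 to 0.024, Pars2 from -0.01 to 0.154 and Nupr1 from -0.059 to 0.049. Among the surrounding lists, other folate enzymes called lower in fibroblasts numbered 9 after quantile normalization, beside 6. The cause of these shifts was not tested. The difference for Atf4 was called with median-ratio scaling alone (0.29, adjusted p = 0.0349).

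The labels number libraries 1 to 3 in each group, but the correlation of deviations between libraries with the same number was not over 0.1 in every pair, so the numbers were not taken as pairs: it was 0.144, 0.037 and 0.086 in cardiomyocytes and -0.002, -0.086 and -0.123 in fibroblasts, between -0.059 and 0.104 across cell types, and not every library correlated best with its own number. With the replicate number as a block, 6 members were called higher and 38 lower in cardiomyocytes, 4 and 31 in fibroblasts, 5 and 4 for the difference and 11 and 34 between control cells. Depth is unknown, so no limit on low values can be given.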
